A study of Xenopus laevis with 24 samples.

Results

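The 15 transcript records described here are Notch ligands, regulators of Notch and Hes-related repressors. They were found by words in their descriptions among 31306 GenBank records measured in *Xenopus laevis* gastrulae. A record was chosen where its description contains X-Delta, delta-like, Notch, serrate, jagged, hairy, enhancer of split, HES-, ESR or XHR1, does not name an estrogen receptor, and where its mean over all libraries was at least 0.5 FPKM (a fragment count scaled by transcript length and library size). The names matched 18 records, of which 3 fell below that floor, with means of 0.0801 FPKM for a delta/notch-like EGF repeat record (a), 0.0355 FPKM for ESR3/7b and 0.000466 FPKM for a groucho-like clone. The lowest record inside the floor, a delta/notch-like EGF repeat record (b), had a mean of 0.840 FPKM. The 15 comprise 3 ligands or ligand-like records, 2 regulators, 9 repressors of the hairy, ESR and XHR1 kinds, and 1 corepressor. No Notch receptor record is among them, because the *Xenopus* receptor is described there as Xotch. Nor do they hold every Hes-related record. A record described as Hes2 lacks the search word HES-, and *hes6.1.L* is described by a gene number.

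The libraries were made from pools of 5 whole embryos of 2 clutches, D and E, which had been exposed in dishes of 25 from cleavage stages 6 to 7 until gastrula stage 10.5. The exposures were TTNPB at 1 µM, which selectively activates retinoic acid receptors (RARs), AGN193109 at 1 µM, which binds RARs as an inverse agonist and silences them, or the 0.1% ethanol vehicle alone. Each exposure had 8 libraries, 4 per clutch, and the exposures differ in no other way the labels record. The comparisons ask how activating RARs or silencing them changes transcript levels by the onset of gastrulation.

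Notch signalling passes between touching cells. A ligand of the Delta or the Serrate (Jagged) type on a cell binds the Notch receptor of its neighbour, proteases release the receptor's intracellular part, and that part enters the nucleus, where it joins Suppressor of Hairless and Mastermind to switch on genes of the Hes, ESR and Hey kinds. Their products are basic helix-loop-helix repressors that recruit Groucho corepressors and hold back proneural genes, so that in the frog embryo Notch selects which neural plate cells become primary neurons and sets boundaries in the paraxial mesoderm and the brain.

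All 24 libraries differed from each other, and none of the 276 pairs held identical values. The depth of the libraries is unknown, because FPKM carries no read counts, and low values are the least certain. AGN193109 replicate 4E stood apart: its median over the tested records was 2.22 FPKM, against 3.26 to 4.47 FPKM in the other 23 libraries, and its top 10 records held 79.2% of the summed FPKM, where the others had 44.1% to 62.8%. Of the 15 records 10 had their lowest AGN193109 value in that library, as did 59.9% of all tested records, so values without it are given beside the results it moved most. Summed FPKM was 877812 to 1011845 in 8 clutch D libraries and 672614 to 729879 in the other 4 of that clutch, and the higher sums included 3 vehicle, 3 TTNPB and 2 AGN193109 libraries. The retinoic acid hydroxylase *cyp26a1*, a textbook RAR target, had 14.1 ± 3.43 FPKM (SD, n = 8) in vehicle, 127 ± 14.5 FPKM in TTNPB and 3.11 ± 1.38 FPKM in AGN193109. Mesoderm, organizer, endoderm and epidermis markers were present in vehicle embryos (*tbxt* 130 FPKM, *chrd* 65.4 FPKM, *sox17b* 61.1 FPKM, *krt70* 25.7 FPKM), while alpha-globin was listed at 0 in every library and lens *cryaa* had a mean of 0.107 FPKM. Neuronal *neurod1*, looked for as another late gene, was not absent from clutch D. It had 1.76 ± 0.41 FPKM (SD, n = 4) in vehicle embryos of clutch D and 0.137 ± 0.16 FPKM in those of clutch E. Over all 24 libraries clutch E differed from clutch D by -1.25 ± 0.13 in log2(FPKM + 1) (SE; limma adjusted p = 1.04e-07). Neuronal *elavl3* was higher than *neurod1*, at 9.32 ± 2.22 FPKM in vehicle, 11.8 ± 4.48 FPKM in TTNPB and 7.39 ± 3.10 FPKM in AGN193109. It did not pass in any comparison of exposures (limma adjusted p = 0.316 for TTNPB against AGN193109).

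In vehicle embryos hairy2b, a repressor of the hairy type, had the highest level of the 15, at 53.5 ± 14.5 FPKM (SD, n = 8). FPKM is scaled by transcript length, so levels of different records can be set side by side, but only roughly. The RNA was amplified and some records, such as the ESR-5-like clone, are partial sequences, so records may not stand equally for whole transcripts. Reads of near-identical copies may have been split between records, so places in the order are uncertain, those of hairy2b, hairy2 and hes1 among them. As deposited, the mean of hairy2b exceeded that of the next record by more than the root of their summed variances. That record, the ESR-5-like clone, was still above hairy2b in vehicle replicates 2D (38.1 against 36.8 FPKM) and 3E (66.2 against 41.2 FPKM). Within the next 4, neighbours in the order did not differ by the same measure: the ESR-5-like clone at 20.9 ± 21.2 FPKM, delta-like 1 at 20.7 ± 4.64 FPKM, hairy2 at 18.1 ± 5.87 FPKM and notchless at 14.1 ± 2.84 FPKM. By that measure a step led down to NRARP, at 9.81 ± 1.18 FPKM, and ESR-6e, at 9.20 ± 2.44 FPKM. The ranges of notchless and NRARP still overlapped, at 9.31 to 17.7 and 8.56 to 11.7 FPKM. A further step led to a group of 5, within which neighbours did not differ beyond their spread. It ran from XHR1-B, at 5.80 ± 1.25 FPKM, through Hesr-1/Hey1, X-Serrate-1 and the enhancer-of-split-related record to ESG2, at 2.26 ± 0.63 FPKM. The lowest were ESR1b at 1.14 ± 0.63 FPKM, hes1 at 1.10 ± 0.77 FPKM and the delta/notch-like EGF record b at 0.840 ± 0.39 FPKM. Delta-like 1 was therefore the ligand record with the highest level in embryos given vehicle alone, since X-Serrate-1 had 4.05 ± 0.51 FPKM.

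**Figure D1:**
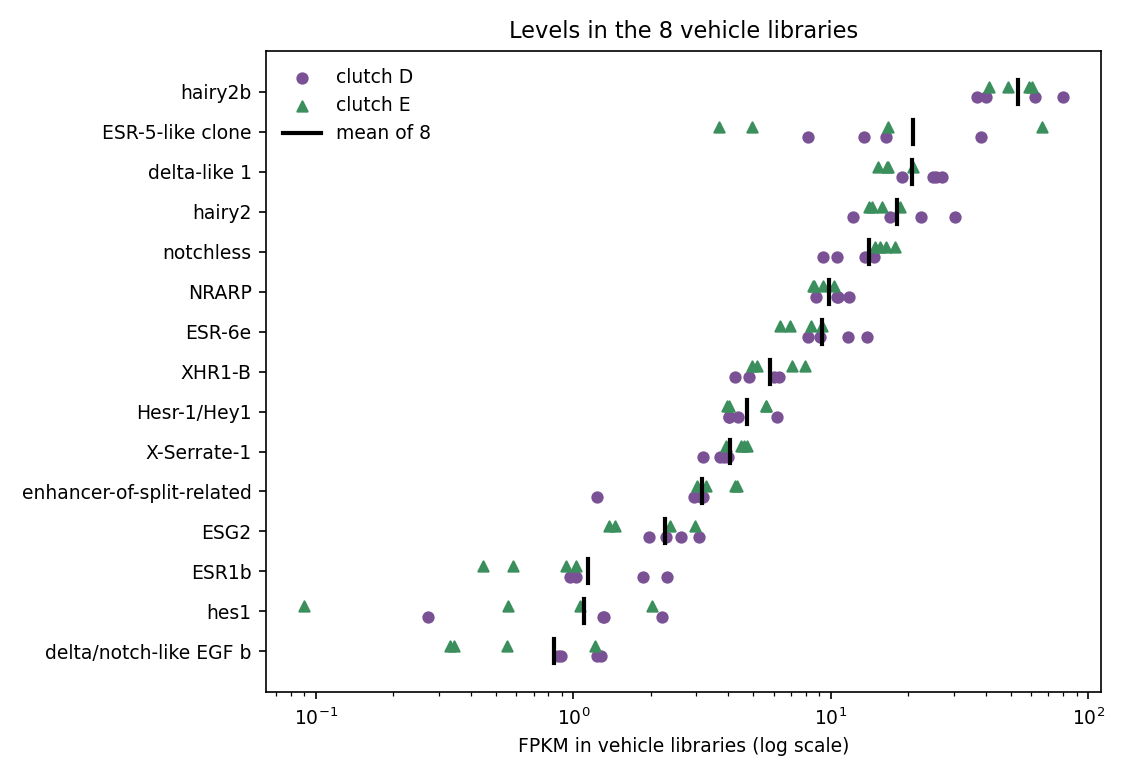
FPKM (log axis) of the 15 records in each of the 8 vehicle libraries, by clutch, with the mean of 8 as a vertical line. The records run from hairy2b at a mean of 53.5 FPKM down to the delta/notch-like EGF record b at 0.840 FPKM, and the ESR-5-like clone has the widest spread, from 3.66 to 66.2 FPKM.

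By name, in RefSeq's gene table for assembly Xenopus_laevis_v10.1, 11 of the 15 records correspond to current gene symbols. X-Serrate-1 is *jag1.L*, NRARP is *nrarp.S*, notchless is *nle1.S*, Hesr-1/Hey1 is *hey1.S*, XHR1-B is *hes7.1.L*, ESR-6e is *hes5.10.L*, ESR1b is *hes5.1.S* and ESG2 is *tle2.L*. The name hairy2b leads to *hes4.S* and hairy2 to both *hes4.L* and *hes4.S*, as hes1 does to its L and S copies. Names do not show how reads were shared between copies, and records that lead to a single L or S copy may be affected too. Counting protein-coding genes only, some of the repressors lie in clusters. In that assembly *esr-5.L*, *hes7.2.L* and *hes7.1.L* follow each other with 0 such genes between them. The *hes5.3.L* to *hes5.10.L* genes are also consecutive, and *hes5.2* and *hes5.1* adjoin on both subgenomes. By contrast, 257 protein-coding genes lie between *hes1.L* and *hes6.1.L*, and 15 between *hes4.L* and *hes5.2.L*. XHR1-B and the gene that the ESR-5-like clone resembles are thus of 1 cluster, while ESR-6e ends another.

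X-Serrate-1, the Jagged-type ligand, was the only one of the 15 records to pass the test for TTNPB against vehicle, and it rose. In clutch D the 4 vehicle libraries had 3.97, 3.84, 3.19 and 3.70 FPKM and the 4 TTNPB libraries 6.71, 6.92, 6.46 and 6.41 FPKM. In clutch E the vehicle libraries had 4.59, 4.71, 4.49 and 3.90 FPKM and the TTNPB libraries 8.60, 9.67, 9.50 and 10.7 FPKM. Every TTNPB library lay above every vehicle library, within each clutch and over both, and the TTNPB libraries of clutch E lay above those of clutch D. The mean rose from 4.05 ± 0.51 to 8.12 ± 1.70 FPKM (SD, n = 8), a ratio of 2.01. On the log2(FPKM + 1) scale, which understates changes of low records, the difference was 0.84 ± 0.13 (SE; limma, Benjamini-Hochberg adjusted p = 5.03e-04 over 22630 tested records). Among all tested records 0.787% passed this test, 0.747% as rises, and 0.473% had TTNPB and vehicle ranges apart with TTNPB higher. In whole-embryo pools, a change in the number of cells of a type and a change in RNA per cell cannot be told apart.

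With AGN193109, X-Serrate-1 did not pass the test against vehicle. The clutch D libraries had 2.60, 3.20, 3.81 and 3.34 FPKM and those of clutch E 4.51, 4.19, 4.42 and 1.58 FPKM, the last being replicate 4E. The 2 exposures overlapped, 6 of 8 AGN193109 libraries had less than their clutch's vehicle mean, and the log2 difference was -0.21 ± 0.13 (adjusted p = 0.721) with replicate 4E and -0.08 ± 0.08 without it. TTNPB exceeded AGN193109 in every pair of libraries, as did 0.53% of all tested records, with a log2 difference of 1.05 ± 0.13 (limma adjusted p = 1.33e-05), which was 0.92 ± 0.08 without replicate 4E. The 3 comparisons share libraries and are not independent of each other. Against vehicle the rise with TTNPB did not pass in a single clutch, where the log2 difference was 0.71 ± 0.14 (limma adjusted p = 0.0830) in clutch D and 0.97 ± 0.24 (adjusted p = 0.214) in clutch E, nor with clutch means as replicates (adjusted p = 0.325). Against AGN193109 it passed in each clutch alone, at 0.86 ± 0.14 (adjusted p = 0.0158) in D and 1.24 ± 0.24 (adjusted p = 0.0296) in E, but not with clutch means (adjusted p = 0.127). Each clutch alone was fitted with all 3 exposures. The SE in clutch E, also against vehicle, therefore includes the spread of AGN193109 replicate 4E.

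**Figure D2:**
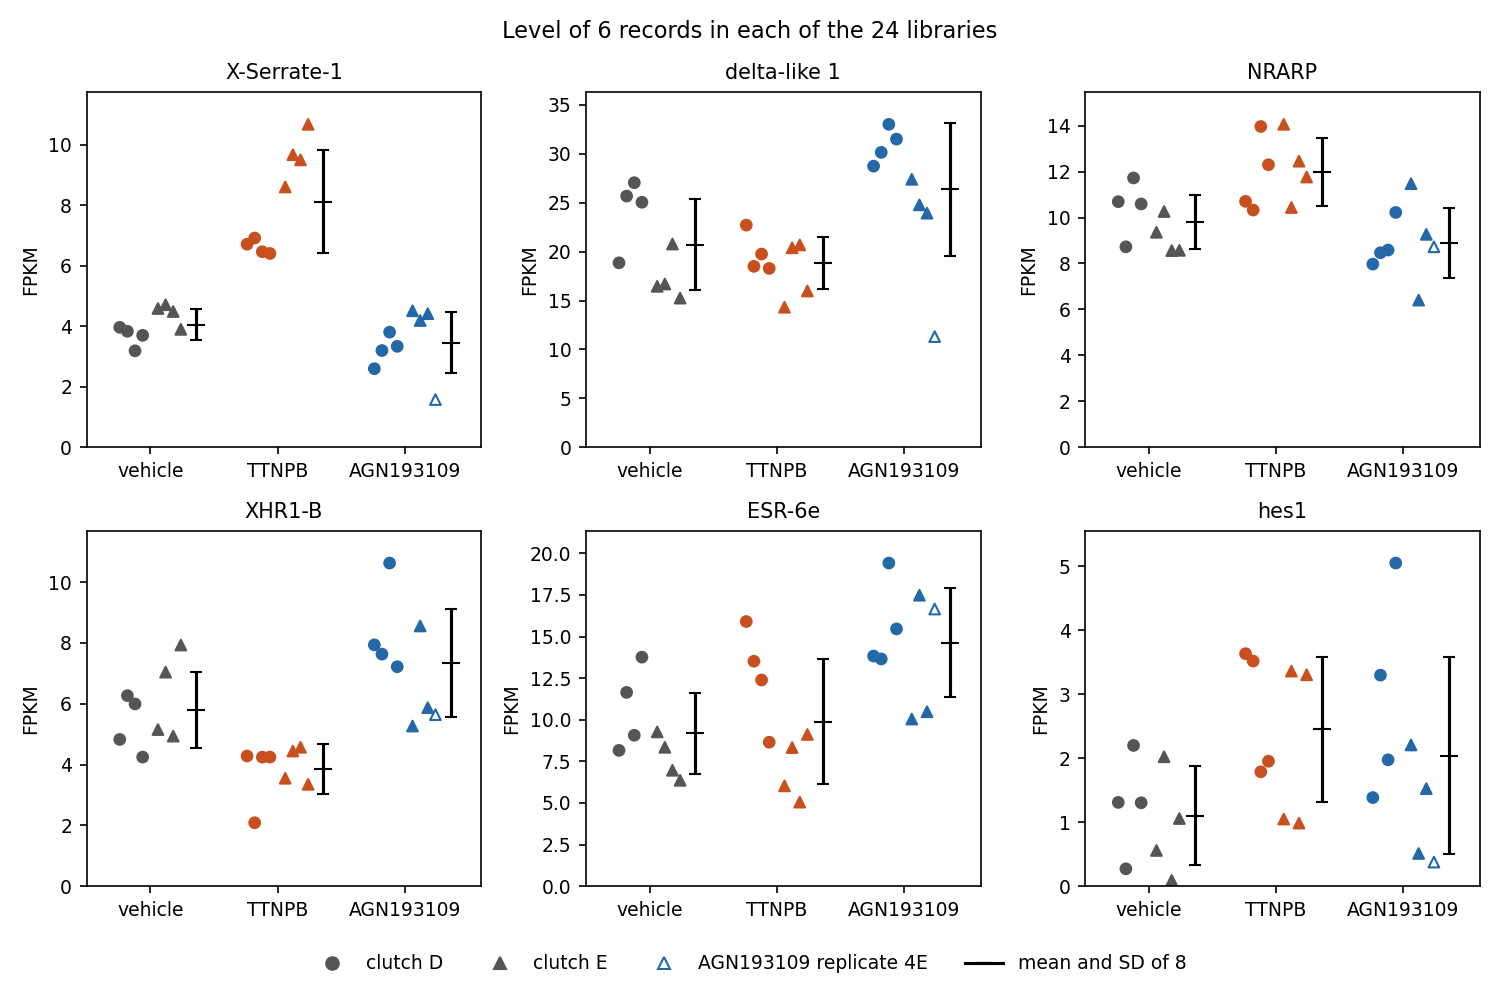
FPKM of 6 records in each of the 24 libraries by exposure, with circles for clutch D, triangles for clutch E, an open triangle for AGN193109 replicate 4E and the mean and SD of 8 libraries beside each group. X-Serrate-1 lies between 6.41 and 10.7 FPKM in TTNPB, above all other libraries, and XHR1-B lies at 4.57 FPKM or less in TTNPB and at 5.26 FPKM or more in AGN193109.

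The delta-like 1 record is described only as similar to delta-like 1, and its name led to no current gene symbol. A Delta-type ligand singles out primary neurons in *Xenopus*. The delta-like 1 record did not pass the test in any of the 3 comparisons of exposures. Its lowest, median and highest values were 15.2, 19.8 and 27.0 FPKM in vehicle, 14.3, 19.1 and 22.7 FPKM in TTNPB, and 11.3, 28.0 and 33.0 FPKM in AGN193109. In AGN193109 7 of 8 libraries lay above the vehicle mean of their clutch, the exception being replicate 4E with 11.3 FPKM, and the exposures overlapped. The log2 differences were -0.12 ± 0.14 for TTNPB and 0.31 ± 0.14 for AGN193109 against vehicle (limma adjusted p = 0.9995 and 0.602), and the latter was 0.44 ± 0.10 without replicate 4E (adjusted p = 0.0669). TTNPB lay below AGN193109 by -0.42 ± 0.14 (adjusted p = 0.301), with each of the 8 TTNPB libraries below the AGN193109 mean of its clutch. Without replicate 4E that difference was -0.56 ± 0.10 and passed (adjusted p = 0.00109), as it did after quantile scaling of the libraries (-0.51 ± 0.09, adjusted p = 0.0011).

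The third ligand record, delta/notch-like EGF record b, resembles DNER, a non-canonical Notch ligand of the mammalian brain. It stayed near 0.8 FPKM on average in each exposure, with log2 differences between -0.02 and 0.02 (SE 0.15) in the 3 comparisons and ranges that overlapped in all 3.

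Among the regulators, NRARP, an ankyrin-repeat protein that Notch switches on and that in *Xenopus* lowers the level of the active receptor fragment, had 8.56, 9.81 and 11.7 FPKM (lowest, median, highest) in vehicle, 10.3, 12.0 and 14.1 FPKM in TTNPB, and 6.41, 8.65 and 11.5 FPKM in AGN193109. The ranges overlapped, with all 8 TTNPB libraries above the AGN193109 mean of their clutch and 7 of 8 above that of vehicle. The log2 difference was 0.40 ± 0.11 for TTNPB against AGN193109 (limma adjusted p = 0.0936) and 0.27 ± 0.11 against vehicle (95% interval 0.04 to 0.49, adjusted p = 0.642), so neither passed. Without replicate 4E the first was 0.40 ± 0.10 (adjusted p = 0.0517), and without AGN193109 replicate 1E its adjusted p was 0.0346. That was the only 1 of 24 leave-outs in which it passed, and the limma adjusted p ran up to 0.220. In the 12 other alternatives it passed in 0, with adjusted p of 0.0549 to 0.755. Notchless, found as a modifier of Notch in *Drosophila* and a factor of ribosome assembly, and taken in here by its name, did not pass either. It had 9.31, 14.7 and 17.7 FPKM (lowest, median, highest) in vehicle, 12.5, 16.8 and 19.8 FPKM in TTNPB, and 7.65, 16.7 and 19.6 FPKM in AGN193109, where the lowest was replicate 4E. The ranges overlapped. For AGN193109 against vehicle the log2 difference was 0.14 ± 0.16, and 0.29 ± 0.10 without replicate 4E (limma adjusted p = 0.203).

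XHR1-B was the only repressor among the 9 that passed a test between exposures, and it was lower in TTNPB than in AGN193109. XHR1 is an early mark of the prospective midbrain-hindbrain boundary in *Xenopus*. In clutch D the TTNPB libraries had 4.28, 2.09, 4.24 and 4.25 FPKM and the AGN193109 libraries 7.94, 7.63, 10.6 and 7.22 FPKM. In clutch E the TTNPB libraries had 3.55, 4.44, 4.57 and 3.35 FPKM and the AGN193109 libraries 5.26, 8.56, 5.87 and 5.64 FPKM. No TTNPB library reached the lowest AGN193109 library, in either clutch or over both. The log2 difference was -0.78 ± 0.15 (SE; limma adjusted p = 0.00392), and -0.82 ± 0.15 without replicate 4E. With X-Serrate-1, 2 of the 15 records passed this comparison, against 1.03% of all tested records (0.937% higher and 0.0972% lower in TTNPB), and 0.0574% of all records had the ranges apart with TTNPB lower. The difference of XHR1-B was known when the records were chosen, so this count is not independent support.

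The vehicle libraries lay between the exposures for XHR1-B, with 4.83, 6.26, 5.99 and 4.25 FPKM in clutch D and 5.15, 7.04, 4.93 and 7.93 FPKM in clutch E. All 8 TTNPB libraries had less than their clutch's vehicle mean, but the ranges met in clutch D, and the log2 difference of -0.49 ± 0.15 (95% interval -0.80 to -0.18) did not pass (limma adjusted p = 0.237). AGN193109 lay above every vehicle library in clutch D and overlapped with vehicle in clutch E, and its difference from vehicle, 0.29 ± 0.15, did not pass either (adjusted p = 0.639). The difference between TTNPB and AGN193109 was -1.01 ± 0.20 in clutch D alone (limma adjusted p = 0.0714) and -0.55 ± 0.21 in clutch E alone (adjusted p = 0.497), and it did not pass with clutch means as replicates (adjusted p = 0.382).

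ESR-6e, which in the *Xenopus* epidermis responds to Notch and limits the number of ciliated cells, had higher values with AGN193109 without passing the test. Its lowest, median and highest values were 6.36, 8.71 and 13.8 FPKM in vehicle, 5.05, 8.88 and 15.9 FPKM in TTNPB, and 10.0, 14.6 and 19.4 FPKM in AGN193109. All 8 AGN193109 libraries lay above the vehicle mean of their clutch, although the ranges overlapped. The log2 difference was 0.62 ± 0.16 against vehicle, with an unadjusted p of 7.53e-04 and a limma adjusted p of 0.233, and replicate 4E, at 16.7 FPKM, was among its higher libraries (0.56 ± 0.16 without it). TTNPB lay below AGN193109 by -0.57 ± 0.16 (adjusted p = 0.116), which passed with a term for libraries of high summed FPKM (adjusted p = 0.0470). A record of *foxj1*, the regulator of motile cilia, had 1.05 ± 0.46 FPKM in vehicle, 1.22 ± 0.44 FPKM in TTNPB and 2.04 ± 0.78 FPKM in AGN193109, with a log2 difference of 0.56 ± 0.15 for AGN193109 against vehicle (limma adjusted p = 0.261). Between the clutches *foxj1* was higher in E than in D (0.43 ± 0.12, limma adjusted p = 0.00830), where ESR-6e was lower (-0.45 ± 0.13, adjusted p = 0.0115). In whole-embryo pools the cells that held *foxj1* are not known, and its part in the values of ESR-6e was not tested.

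The hairy2 pair did not pass the test with either compound. Hairy2b had 36.8, 53.7 and 79.7 FPKM (lowest, median, highest) in vehicle, 44.0, 54.0 and 79.5 FPKM in TTNPB, and 8.36, 55.0 and 77.9 FPKM in AGN193109, where the lowest value was replicate 4E. Hairy2, its near copy, had medians of 16.4, 16.9 and 21.8 FPKM in the same order. Their log2 differences ran from -0.26 to 0.32 over the 3 comparisons with SEs of 0.25 and 0.28, and both ends were hairy2b in the comparisons with AGN193109. Without replicate 4E hairy2b differed by 0.05 ± 0.16 for AGN193109 against vehicle and by 0.01 ± 0.16 for TTNPB against AGN193109. Hairy2, at 3.68 FPKM in that library, went from 0.04 to 0.30 ± 0.16 and from -0.01 to -0.28 ± 0.16 (limma adjusted p = 0.448 and 0.579).

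The low repressor hes1, a general Notch target, had 0.0900, 1.18 and 2.20 FPKM in vehicle, 0.985, 2.63 and 3.63 FPKM in TTNPB, and 0.376, 1.75 and 5.05 FPKM in AGN193109. All 8 TTNPB libraries lay above the vehicle mean of their clutch, but the ranges overlapped and the log2 difference of 0.73 ± 0.27 (95% interval 0.18 to 1.28) did not pass (limma adjusted p = 0.458). For AGN193109 against vehicle it was 0.47 ± 0.27, and 0.58 ± 0.27 without replicate 4E (limma adjusted p = 0.363). Hesr-1/Hey1, a Hes relative that also responds to Notch, had medians of 4.17 FPKM in vehicle, 5.56 FPKM in TTNPB and 4.29 FPKM in AGN193109, and TTNPB exceeded AGN193109 by 0.42 ± 0.16 without passing (adjusted p = 0.431). Replicate 4E, at 1.24 FPKM, was the lowest library, and without it the difference was 0.26 ± 0.11 (limma adjusted p = 0.385).

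The ESR-5-like clone, an expressed sequence tag that only resembles the segmentation gene ESR-5, varied more than 10-fold within vehicle, from 3.66 to 66.2 FPKM around a median of 14.9 FPKM, ran from 3.06 to 22.7 FPKM in TTNPB around a median of 11.8 FPKM, and from near 0 in replicate 4E to 16.8 FPKM in AGN193109 around a median of 10.6 FPKM. Its log2 differences from vehicle were -0.63 with TTNPB and -1.03 with AGN193109, with an SE of 0.58. The latter was -0.60 ± 0.52 without replicate 4E. TTNPB against AGN193109 went from 0.39 to -0.04 ± 0.52 on leaving that library out. The other records of this kind were ESR1b, a Notch target of the neural plate, the enhancer-of-split-related record, and the Groucho-type corepressor ESG2, through which Hes proteins repress. ESG2 had 1.38, 2.33 and 3.06 FPKM (lowest, median, highest) in vehicle, 0.665, 3.27 and 4.84 FPKM in TTNPB, and 0.767, 2.94 and 6.49 FPKM in AGN193109. Replicate 4E was the lowest of the last. The log2 differences of the 3 records lay between -0.30 and 0.35 in the 3 comparisons, or -0.34 and 0.39 without replicate 4E, and none passed.

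Over the 15 records together, the counts past the test were 1 for TTNPB against vehicle, 0 for AGN193109 against vehicle and 2 for TTNPB against AGN193109. At an unadjusted p under 0.05 the counts with TTNPB were 4 of 15 against vehicle (X-Serrate-1, hes1 and NRARP higher, XHR1-B lower) and 6 of 15 against AGN193109, where 6.05% and 7.79% of all tested records had such a p. XHR1-B, whose difference was known when the records were chosen, is in each of these counts. For AGN193109 against vehicle 0.0177% of all tested records passed limma's adjusted test, and 3 of the 15 (ESR-6e, ESR1b and delta-like 1, all higher) had an unadjusted p under 0.05, against 8.19% of all tested records. The median log2 difference of the 15 was 0.06, 0.14 and 0.03 for TTNPB against vehicle, AGN193109 against vehicle and TTNPB against AGN193109. For all tested records it was 0.01, -0.03 and 0.04. Above 0 lay 11, 10 and 8 of the 15, against 53.4%, 45.4% and 57.3% of all tested records. Without AGN193109 replicate 4E the medians of the 15 were 0.06, 0.29 and -0.08, against 0.01, 0.06 and -0.05 for all tested records.

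**Figure D3:**
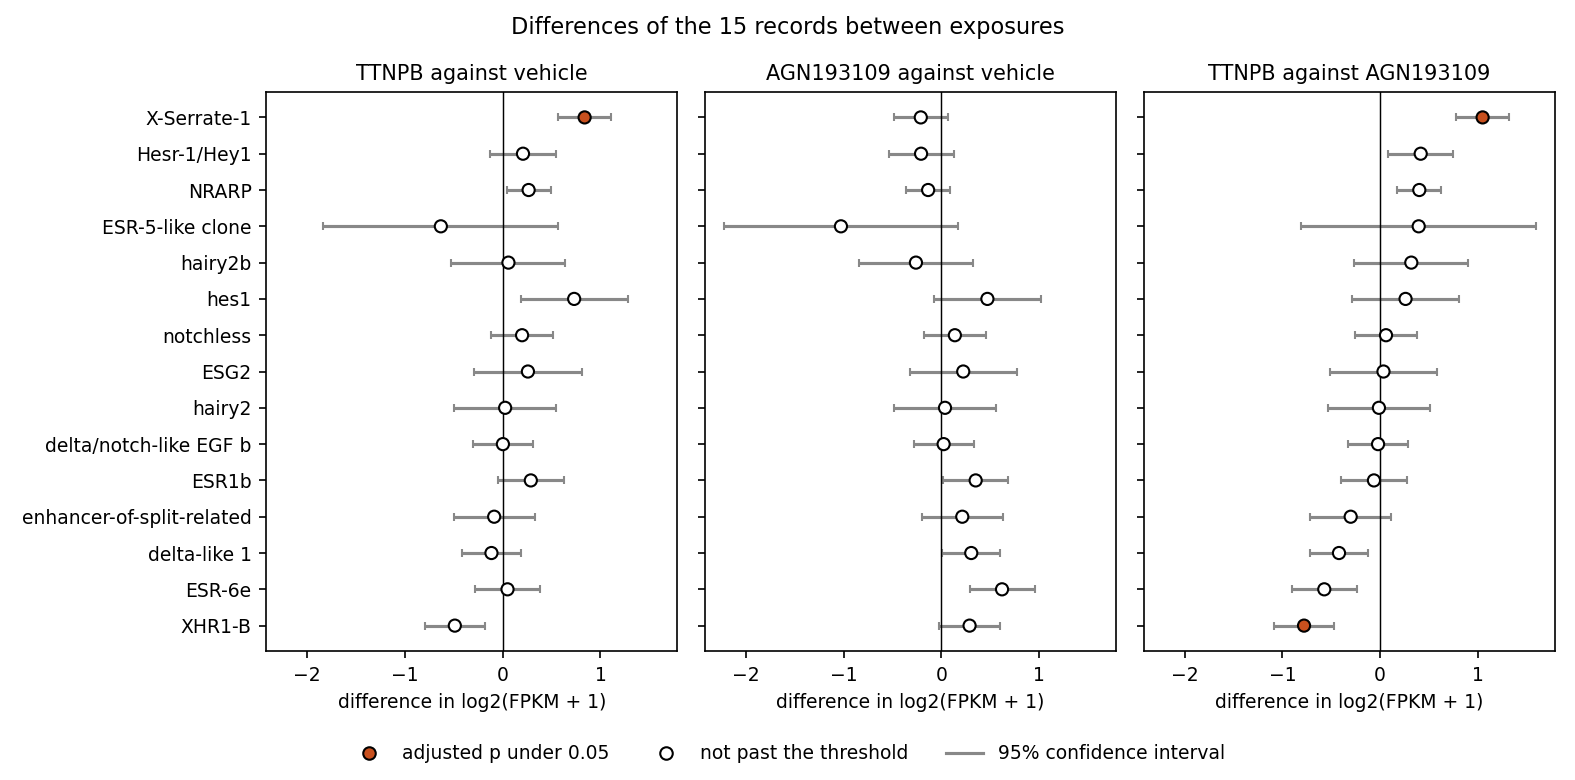
Differences in log2(FPKM + 1) of the 15 records between exposures, with 95% confidence intervals from limma over 24 libraries; filled points passed an adjusted p of 0.05. X-Serrate-1 is filled in both comparisons with TTNPB (0.84 against vehicle and 1.05 against AGN193109), XHR1-B in the last (-0.78), and no point in the comparison of AGN193109 with vehicle.

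Other genes of the pathway were followed through 30 tested records named for the machinery of Notch, for proneural and segmentation genes under it, and for regulators of helix-loop-helix factors; 7 more such records were under the floor. The core machinery did not pass the test. Xotch, the Notch receptor, which was added to that list later, had 13.4 ± 1.12 FPKM in vehicle, 14.9 ± 1.87 FPKM in TTNPB and 13.8 ± 3.69 FPKM in AGN193109, and neither the DNA-binding partner Suppressor of Hairless 1 (log2 difference of 0.04 ± 0.19 for TTNPB against vehicle) nor Mastermind1 (0.10 ± 0.14) passed. The Hes-related records Hes2 and *hes6.1.L*, also added later, did not pass in any comparison of exposures. Hes2 had 4.77 ± 1.08 FPKM in vehicle, 3.38 ± 0.66 FPKM in TTNPB and 4.32 ± 1.94 FPKM in AGN193109. For *hes6.1.L* the values were 8.13 ± 2.89, 8.40 ± 1.95 and 9.68 ± 3.32 FPKM in the same order. Against vehicle, TTNPB raised 2 of the 30, X-MyT1 and thylacine 2, and lowered 0, where 0.747% of all tested records rose. X-MyT1, a zinc finger partner of proneural factors that lets neuronal precursors escape lateral inhibition in *Xenopus*, rose from 2.21 ± 0.91 to 5.49 ± 1.54 FPKM (log2 1.04 ± 0.21, limma adjusted p = 0.00749), with ranges of 0.904 to 3.33 and 3.27 to 7.57 FPKM that met at their edges. Thylacine 2, a Mesp-type factor of segmental mesoderm, rose from 1.73 ± 0.82 to 3.92 ± 1.16 FPKM (0.85 ± 0.20, adjusted p = 0.0307). Its difference was known when the list was chosen. Other segmentation records of the list did not pass. Thylacine 1 had 1.32 ± 0.75 FPKM in vehicle and 1.14 ± 0.58 FPKM in TTNPB, and mespa' had 9.24 ± 1.94 and 8.57 ± 2.29 FPKM. Mespo had 15.1 ± 2.97 and 18.3 ± 5.61 FPKM in the same order, and bowline 1.87 ± 0.84 and 2.29 ± 0.75 FPKM. The thylacine 2 call was lost on leaving out vehicle replicate 2D, 3D, 4D, 1E, 2E or 4E or any TTNPB replicate but 2D, with adjusted p of 0.0542 to 0.0910, while X-MyT1 passed in all 24 leave-outs.

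Against AGN193109, TTNPB was higher for 3 of the 30, X-MyT1 (0.96 ± 0.21, limma adjusted p = 0.0117), neurogenin-related 1b (0.68 ± 0.16, adjusted p = 0.0322) and Id2 (0.67 ± 0.16, adjusted p = 0.0323), and lower for 0, where 0.937% of all tested records were higher and 0.0972% lower. Without replicate 4E these were 0.84 ± 0.19, 0.63 ± 0.16 and 0.55 ± 0.13, the second no longer passing. In that fit Xfringe2, a further fringe record, passed (0.37 ± 0.09, limma adjusted p = 0.0495). Id2 also passed there for TTNPB against vehicle (0.52 ± 0.13, adjusted p = 0.0345). Neurogenin-related 1b, a proneural factor that Notch holds back, had 1.99 ± 0.81 FPKM in vehicle, 3.11 ± 1.17 FPKM in TTNPB and 1.50 ± 0.39 FPKM in AGN193109. The record of neurogenin-related 1a had 0.803 ± 0.27, 1.58 ± 0.56 and 0.976 ± 0.52 FPKM in the same order, so its mean was not lower with AGN193109 than in vehicle. For TTNPB against AGN193109 it did not pass (0.41 ± 0.16, limma adjusted p = 0.446). Neurogenin 3, with 3.02 ± 0.99, 4.49 ± 1.34 and 2.46 ± 1.22 FPKM, did not pass either. Id2, which blocks helix-loop-helix activators by pairing with them, had 21.2 ± 8.35, 31.0 ± 12.5 and 19.8 ± 9.47 FPKM in the same order. The neurogenin-related 1b call was lost without TTNPB replicate 3D, 4D, 2E, 3E or 4E or AGN193109 replicate 1D, 3D, 4D, 1E, 2E or 4E (adjusted p of 0.0508 to 0.0893), and the Id2 call without TTNPB replicate 1D, 3D, 1E, 2E or 3E or AGN193109 replicate 2D, 4D or 3E (0.0508 to 0.0865). For AGN193109 against vehicle 0 of the 30 passed limma's adjusted test and 0 had an unadjusted p under 0.05, against 8.19% of all tested records. By the unadjusted p there were 8 of 30 for TTNPB against vehicle (6.05% of all) and 8 of 30 for TTNPB against AGN193109 (7.79% of all). Lunatic fringe, which modifies Notch and sets which ligand it answers to, has 2 records. The one on the list had 8.95 ± 2.52 FPKM in vehicle, 13.8 ± 4.97 FPKM in TTNPB and 6.99 ± 2.70 FPKM in AGN193109, and did not pass for TTNPB against AGN193109 (0.95 ± 0.26, adjusted p = 0.0968), with 0.71 ± 0.20 without replicate 4E (adjusted p = 0.0836). The other, *lfng.L*, added later, was higher, at 35.8 ± 4.62, 39.3 ± 4.83 and 37.4 ± 12.4 FPKM in the same order, with a log2 difference of 0.18 ± 0.22 for TTNPB against AGN193109 (limma adjusted p = 0.908). The median log2 differences of the 30 were 0.09, -0.06 and 0.10 for TTNPB against vehicle, AGN193109 against vehicle and TTNPB against AGN193109.

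Embryos of the clutches differed in 3 of the 15 records, all lower in clutch E than in clutch D: delta-like 1 by -0.39 ± 0.12 (log2, limma adjusted p = 0.0158), ESR-6e by -0.45 ± 0.13 (adjusted p = 0.0115) and ESR1b by -0.42 ± 0.13 (adjusted p = 0.0200). Of all tested records 29.3% passed, 25.8% as lower, so the 3 of 15 do not stand above the background, and the median record was lower by -0.19. After quantile scaling, which took that median to 0.00, the 3 differences were -0.15, -0.20 and -0.24, and none passed. X-Serrate-1 went the other way, at 0.26 ± 0.11 (adjusted p = 0.0764), and passed without AGN193109 replicate 4E (0.35 ± 0.07, adjusted p = 2.54e-04) and after quantile scaling (0.46 ± 0.07). Over the 7 alternatives other than leave-outs its difference ran from 0.13 to 0.46, and in 5 of these it did not pass (limma adjusted p up to 0.481). The responses to the compounds were not shown to differ between the clutches: 0 of the 15, and 0 of all 22630 records, passed limma's test of the interaction for either compound, and at an unadjusted p under 0.05 there were 1 of 15 for TTNPB, against 2.87% of all tested records, and 0 for AGN193109, against 5.73%. For X-Serrate-1 the interaction with TTNPB was 0.26 ± 0.26, and for XHR1-B that with AGN193109 was -0.55 ± 0.29 (adjusted p = 0.816).

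The records most like X-Serrate-1 over the 24 libraries, by Pearson's correlation of log2(FPKM + 1) after removal of the clutch means, were rexp91 (0.964), a cDNA clone with no gene name (0.964), and nocA-like zinc finger 1 (0.956). These values describe libraries that share exposures and scaling and were ranked over all records, so no test is attached. Among the 15, Hesr-1/Hey1 was closest to X-Serrate-1, at 0.710, and at 0.552 without replicate 4E. For XHR1-B the closest were orthodenticle homolog 5 (0.796) and HESX homeobox 1 (0.792), homeobox genes of anterior tissue, and the hypothetical protein LOC443682 (0.738). Among the 15 it was delta-like 1, at 0.538, or 0.615 without replicate 4E.

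**Figure D4:**
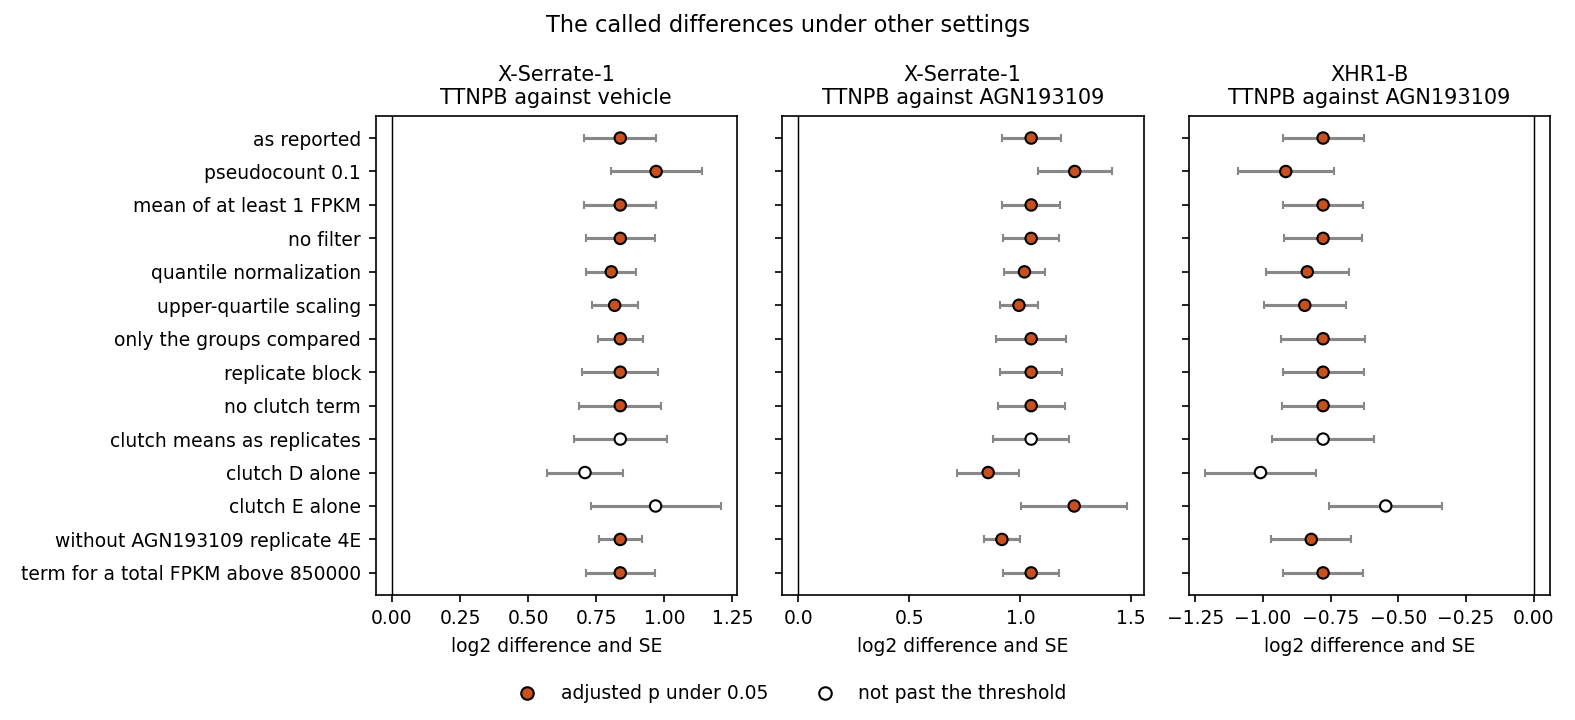
The 3 called differences, with SE, under 14 settings; filled points passed an adjusted p of 0.05. X-Serrate-1 and XHR1-B keep their direction in each setting shown, and the open points are those with fewer libraries or replicates: clutch means, and, except for X-Serrate-1 against AGN193109, each clutch alone.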

How the data were processed

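Per the labels' protocols, total RNA of each 5-embryo pool was amplified with the NuGEN Ovation system and sequenced as SOLiD fragment libraries. The authors deposited FPKM for 31306 records in 24 library columns, made with TopHat, Bowtie and Cufflinks per the submitters' processing notes. Tool versions and the reference used are not given in the sources used here. Each library's exposure, clutch and replicate came from its labels, and of the replicates they mention 4 per clutch and exposure are analysed here. Aliquots of a dish may have become several libraries, so the spread behind each p-value is that of aliquots, and only the 2 clutches are independent sibships.

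Tested were the 22630 records averaging 0.5 FPKM or more, as log2(FPKM + 1), with a pseudocount of 1, in a limma fit (limma 3.58.1, R 4.3.3, trended empirical Bayes) of exposure and clutch over all 24 libraries. The Benjamini-Hochberg adjustment ran over all 22630, and calls needed an adjusted p under 0.05. The interaction of exposure and clutch was fitted separately. The fit was tested on simulated data with independent normal noise in each library. These held no library like AGN193109 replicate 4E and no shared aliquots of a dish, so the test cannot speak to those.

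The 15 records, the pathway list and the rule for naming were chosen with earlier results of these data known, among them the differences of XHR1-B and thylacine 2, which are therefore not independent support. Values per library or by range are given for records past the threshold, for the highest of each role and for some others, list records are named where past the threshold, and the 3 most alike records are named for members past the threshold for TTNPB against AGN193109; the others, Xotch, fringe, Suppressor of Hairless and Mastermind among them, were named for their role. Replicate numbers were not taken to pair the libraries: same-numbered libraries of a clutch had correlated deviations of -0.109 to 0.112, over 0.1 in 1 of 24 pairs. Libraries of unlike number had -0.114 to 0.153, over 0.1 in 3 of 72 pairs. The labels do not say whether libraries of the same number shared a dish or a processing step, and this was not tested.

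Alternatives were a pseudocount of 0.1, a floor of 1 FPKM or none, upper-quartile or quantile scaling, a fit of just the groups compared, a replicate block, no clutch term, clutch means, each clutch alone, each library left out and, added after seeing the data, a term for a summed FPKM above 850000, vehicle libraries alone for the clutches and an enlarged list.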

Additional observations from a re-analysis of the deposited data

Results flagged for a closer look

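Delta-like 1 had 11.3 FPKM in AGN193109 replicate 4E, far below the other 7 AGN193109 libraries at 23.9 to 33.0 FPKM. The enhancer-of-split-related record had 1.23 FPKM in vehicle replicate 4D, against 2.93 to 4.33 FPKM in the other 7 vehicle libraries. A test for a lone sample was made in 45 groups, and chance alone singles out about 1 in 20 of them. The delta/notch-like EGF record b moved in opposite directions in the clutches with TTNPB: the mean differed from vehicle by -0.436 FPKM in clutch D, with all 4 TTNPB libraries of that clutch on that side of the vehicle mean, and by 0.409 FPKM in clutch E, with all 4 on the other. Limma's test of the interaction gave 0.71 ± 0.27 on the log2 scale, with an unadjusted p of 0.0162 and an adjusted p of 1.00, at a level near 0.8 FPKM.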

How the results depend on the processing

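For TTNPB against vehicle X-Serrate-1 passed in all 24 leave-outs (adjusted p of 2.12e-07 to 0.00204), and the count among the 15 was 0 only with clutch means, clutch D alone or clutch E alone. For TTNPB against AGN193109 the count was 0 with clutch means and 1 (X-Serrate-1) in each clutch alone. Among the 12 alternatives other than leave-outs it reached up to 3, and delta-like 1 passed in 2 of them and ESR-6e in 1. Leaving out a library gave 2 to 3, and XHR1-B passed in all 24 leave-outs (0.00192 to 0.0119). For AGN193109 against vehicle it stayed 0 in every alternative run. Among the 30 pathway records TTNPB against vehicle gave 1 with a pseudocount of 0.1, 0 with clutch means, clutch D alone or clutch E alone, and 1 to 3 without a library. TTNPB against AGN193109 gave 5 with quantile normalization or upper-quartile scaling, 1 with only the groups compared or no clutch term, 0 with clutch means, clutch D alone or clutch E alone, and 1 to 5 without a library. For clutch E against clutch D the count was 5 with the term for a total FPKM above 850000 (delta-like 1, hairy2, hairy2b, hes1 and Hesr-1/Hey1), 0 in vehicle libraries alone, and 3 to 5 without a library, 5 being without AGN193109 replicate 4E. Called over all 22630 tested records were 6640 in the main fit and 7317 with that term. In vehicle libraries alone 3164 were called, and 8172 without AGN193109 replicate 4E. Only the groups compared was not run for the clutches, being the same fit. The cause of these shifts was not tested, except that clutch means and single clutches hold fewer libraries. In every fit of TTNPB against vehicle but that of only the groups compared, the SE also rested on the AGN193109 libraries. Called over all records for TTNPB against vehicle were 178, against 312 without AGN193109 replicate 4E, 286 with only the groups compared, 21 with clutch means, 49 in clutch D and 79 in clutch E.

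With the replicate block X-Serrate-1 kept adjusted p of 0.00289 against vehicle and 1.81e-04 against AGN193109, XHR1-B kept 0.00942, and 160 records were called for TTNPB against vehicle; 7 of 24 libraries correlated best with a library of their own number. Differences between exposures were followed over all alternatives for X-Serrate-1, XHR1-B, delta-like 1, ESR-6e and NRARP. Among these, a small difference of delta-like 1 changed sign for TTNPB against vehicle in clutch E alone (0.036). That of ESR-6e did so in the same comparison in clutch E alone (-0.12) and without vehicle replicate 1D or TTNPB replicate 1D. Its leave-outs gave -0.024 to 0.13. The other records were not followed in this way. Of those, hairy2b for AGN193109 against vehicle and the ESR-5-like clone for TTNPB against AGN193109 changed sign without AGN193109 replicate 4E, as given above.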
